A study of Mus musculus with 6 samples.

Results

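Genes of innate nucleic acid sensing, 10 in number, were followed in the ageing mouse cochlea. They are the RIG-I-like receptors Ddx58, Ifih1 and Dhx58 with their adaptor Mavs, the intracellular sensors Eif2ak2 and Zbp1, the Toll-like receptors Tlr2, Tlr3 and Tlr7, and the adaptor Myd88. These 10 genes were taken by name from the 25419 genes of the table, and all 10 were among the 19465 genes with a mean of at least 0.1 FPKM that were tested. FPKM is a level in fragments, scaled to transcript length and to library size, so it can be set side by side between genes. The samples came from C57BL/6 mice, an inbred strain with early hearing loss, housed free of specific pathogens and given no treatment. Of the 6 samples, 3 came from mice of 1 month (young) and 3 from mice of 12 months (old), and each was a pool of cochlear tissue from 3 mice, for which the protocol names the basilar membrane. All mice shared 1 genetic background, so age was the only difference between the groups that the labels give.

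RIG-I-like receptors are cytosolic helicases that bind double-stranded or uncapped RNA and signal through MAVS on mitochondria to interferon and inflammatory genes. Toll-like receptors read microbial products at the cell surface or nucleic acid inside endosomes and signal through MYD88 or TRIF. EIF2AK2 and ZBP1 bind double-stranded RNA or left-handed nucleic acid and can stop translation or start cell death. Many of these sensors are themselves interferon-stimulated genes, and macrophages, which reside in the cochlea, are known to carry several Toll-like receptors.

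The estimated depth was 12560000 to 15670000 fragments per sample, with old sample 2 the deepest. Summed markers of hair cells, between 141.2 and 278.6 FPKM, and of supporting cells, between 988.2 and 1234.0 FPKM, were present in every sample, as were those of erythroid cells, between 1049.2 and 2126.8 FPKM. Young sample 1 stood apart in neutrophil markers, which summed to 402.1 FPKM there and to between 10.8 and 69.9 FPKM in the other samples. Old sample 2 stood apart in interferon-stimulated genes, whose sum is given below.

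Of the 10 genes, 5 passed the threshold as higher in old cochlea, namely Ddx58, Ifih1, Dhx58, Tlr2 and Eif2ak2, and none was lower (limma, adjusted p under 0.05 over all tested genes). Over all 19465 genes, 9.45% were called, 5.65% as higher and 3.81% as lower. Zbp1, Tlr3 and Tlr7 had higher means in old mice with adjusted p between 0.0624 and 0.0679, and Mavs and Myd88 lay further from the threshold. In 9 of the 10 genes every old sample exceeded every young sample, which held for 17.6% of all genes, and the exception was Mavs. The median log2 change of the 10 genes was 0.99, against 0.009 over all genes tested. The number of calls rested on single samples: it was 0 without old sample 2, 1 without young sample 2, 2 without old sample 1, 1 without old sample 3, and 5 without either of the other young samples. The whole table also lost calls, from 1840 of 19465 genes to 62 of 19408 without old sample 2. It held 332 calls without young sample 2, 397 without old sample 1 and 364 without old sample 3. Without young sample 1 it held 741, and without young sample 3 it held 1771. At an unadjusted p under 0.05, 8 of the 10 genes were higher and none lower with all samples, where 14.6% of all genes were higher. Without old sample 2, 9 were higher, and the share of all genes was not counted there. In these mixed tissue samples, more cells of a type and more RNA per cell cannot be told apart.

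**Figure D1:**
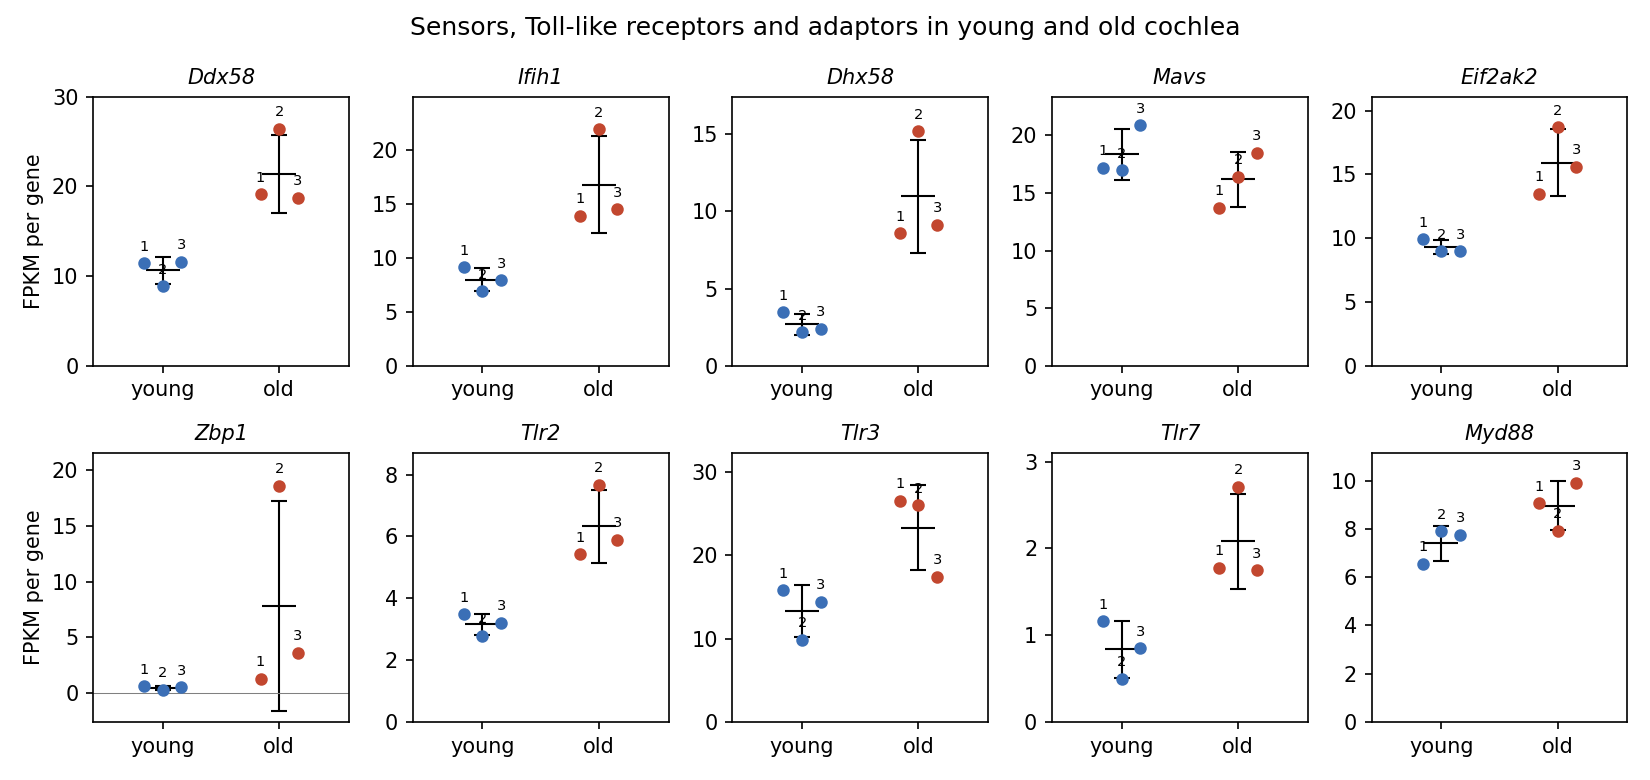
Each panel plots the FPKM of 1 gene (linear axis) in the 3 young (blue) and 3 old (red) samples, with the replicate number above each point and the mean with its SD in black. The old points lie above the young points in every panel except Mavs, and old sample 2 is the highest point in 7 panels.

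Since many sensors are known as interferon targets, their promoters were searched for 2 short words. RefSeq promoters (GRCm38.p6, 250 bases before to 50 after the start site) were matched for 7 of the 10 genes, with none for Dhx58, Zbp1 and Tlr7. The first word was GAAANNGAAA, the core of the interferon-stimulated response element, searched on both strands. It occurred in 4 of the 7 promoters and in 3.44% of all 32851 promoters of the same length. The matches are printed 5′ to 3′ on the strand of the gene, with the matched letters in capitals, because they show how near the start sites they lie.
Ddx58, chr4:40239804-40239833, minus strand: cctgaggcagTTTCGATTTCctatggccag
Ifih1, chr2:62646206-62646233, minus strand: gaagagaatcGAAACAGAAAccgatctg
Eif2ak2, chr17:78882535-78882564, minus strand: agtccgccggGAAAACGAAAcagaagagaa
Myd88, chr9:119340039-119340068, minus strand: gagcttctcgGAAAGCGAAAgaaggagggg

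In Ddx58 the match is the reverse complement of the word, at bases 3 to 12 after the start, while those of Eif2ak2 and Ifih1 lie at bases 19 to 28 and 33 to 42 after it. The match of Myd88 ends 31 bases before the start. These letters were not in the windows of Mavs, Tlr2 and Tlr3. The second word, GGGANNNNCC, a simplified kappaB-type word, also on both strands, was found in 3 of the 7 promoters and in 20.7% of all promoters. It occurred 2 times in Tlr2, once as GGGAATTCCC and once as GGGACATCCC, 3 times in Tlr3 and 1 time in Eif2ak2. The 2 words did not overlap in Eif2ak2, where the second lies before the start. A match is a description of letters only. Among the genes with a first-word match, 3 were called higher and Myd88 was not, and Tlr2 was called higher without one.

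Ddx58 (ENSMUSG00000040296, chr4:40203773-40239828, minus strand, GRCm38) encodes RIG-I, the receptor of RNA with a 5′ triphosphate end. Its level was 11.4, 8.85 and 11.6 FPKM in the young samples and 19.1, 26.4 and 18.7 FPKM in the old samples. The lowest old sample lay well above the highest young sample, and old sample 2 was above the other two. The mean rose from 10.6 ± 1.51 to 21.4 ± 4.36 FPKM (SD, n = 3 per group). On the log2 scale this was 1.00, with a 95% interval of 0.61 to 1.39 (SE 0.17, adjusted p = 0.0205 by limma). Without old sample 2 the log2 change was 0.84 with an adjusted p of 0.0626.

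Ifih1 (ENSMUSG00000026896, chr2:62595798-62646255, minus strand) encodes MDA5, the receptor of long double-stranded RNA. It was measured at 9.09, 6.91 and 7.9 FPKM in young and 13.9, 21.9 and 14.5 FPKM in old samples. The order of the samples was that of Ddx58 in the top and bottom places, with old sample 2 highest and young sample 2 lowest. The mean rose from 7.96 ± 1.09 to 16.8 ± 4.44 FPKM (SD, n = 3), or 1.05 on the log2 scale (SE 0.19, limma adjusted p = 0.0244). Without old sample 2 it was 0.84, with an adjusted p of 0.0626.

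Dhx58 (ENSMUSG00000017830, chr11:100694884-100704271, minus strand) encodes LGP2, which binds RNA but lacks the signalling domains of the other 2 receptors. Its level was 3.47, 2.17 and 2.38 FPKM in young samples and 8.58, 15.2 and 9.13 FPKM in old samples, without overlap. The old mean, 11 ± 3.65 FPKM, was 4.1 times the young mean of 2.67 ± 0.698 FPKM (SD, n = 3). Among the 10 genes it had the smallest adjusted p, at 0.0129, with a log2 change of 1.98 (95% interval 1.36 to 2.59, SE 0.26, limma). It was the only gene of the 10 still called without young sample 2 or without old sample 3, and the log2 change without old sample 2 was 1.72 (adjusted p = 0.0522).

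Mavs (ENSMUSG00000037523, chr2:131234063-131248025, plus strand) encodes the mitochondrial adaptor on which RIG-I and MDA5 converge. Young samples held 17.2, 17 and 20.9 FPKM and old samples 13.7, 16.4 and 18.5 FPKM. The groups overlapped, and the lowest value was in old sample 1. The mean was 18.3 ± 2.2 FPKM in young and 16.2 ± 2.39 FPKM in old mice (SD, n = 3), a log2 change of -0.18 with a 95% interval of -0.50 to 0.14 (limma adjusted p = 0.432). Its interval ended below the lower bound of each of the 3 receptors.

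Eif2ak2 (ENSMUSG00000024079, chr17:78852564-78882573, minus strand) encodes PKR, a kinase that phosphorylates eIF2alpha when it binds double-stranded RNA. The young samples were close together, at 9.93, 8.99 and 8.99 FPKM, and the old samples held 13.5, 18.7 and 15.6 FPKM. All old samples exceeded the young samples, with old sample 2 again highest. The mean rose from 9.3 ± 0.546 to 15.9 ± 2.6 FPKM (SD, n = 3), or 0.76 on the log2 scale (SE 0.13, limma adjusted p = 0.0224). This was the smallest change among the 5 called genes, and it was 0.64 with an adjusted p of 0.0719 without old sample 2.

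Zbp1 (ENSMUSG00000027514, chr2:173206612-173218923, minus strand) encodes a sensor of Z-form nucleic acid that can engage RIPK3. It was near the limit of detection in young cochlea, with 0.615, 0.3 and 0.538 FPKM, which stand for about 7, 2 and 4 fragments. Old samples held 1.28, 18.6 and 3.61 FPKM, about 21, 189 and 28 fragments. Old sample 2 was 7.6 times the mean of the other 2 old samples, although every old sample exceeded every young sample. The means were 0.484 ± 0.164 and 7.82 ± 9.39 FPKM (SD, n = 3), and the log2 change was 3.01 with a 95% interval of 1.03 to 4.99 (limma adjusted p = 0.0679). Without old sample 2 the log2 change was 2.00. The largest change among the 10 genes was therefore also the least precise.

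**Figure D2:**
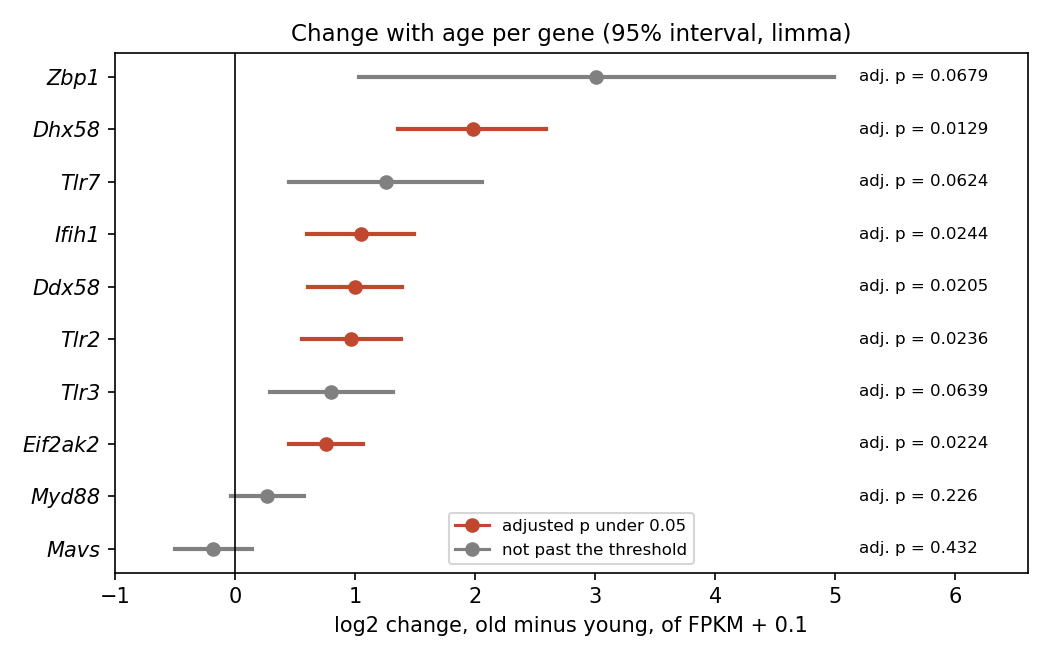
Points give the log2 change (old minus young) of FPKM + 0.1 for each gene, bars the 95% interval of limma, and red marks the 5 genes with an adjusted p under 0.05. Zbp1 has the largest change and the widest interval, 1.03 to 4.99, and the intervals of Myd88 and Mavs include 0.

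Tlr2 (ENSMUSG00000027995, chr3:83836272-83841767, minus strand) encodes a cell surface receptor of bacterial lipoproteins and is the only receptor of the 10 that does not primarily sense nucleic acid. Its level was 3.48, 2.78 and 3.2 FPKM in young and 5.42, 7.67 and 5.89 FPKM in old samples. The groups did not overlap and the spread within each was small. The mean rose from 3.15 ± 0.351 to 6.33 ± 1.18 FPKM (SD, n = 3), or 0.97 on the log2 scale (SE 0.17, 95% interval 0.56 to 1.38, limma adjusted p = 0.0236). Without old sample 2 the log2 change was 0.83 (adjusted p = 0.0848).

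Tlr3 (ENSMUSG00000031639, chr8:45395665-45411080, minus strand) encodes the endosomal receptor of double-stranded RNA, which signals through TRIF and not through MYD88. It was measured at 15.8, 9.85 and 14.4 FPKM in young and 26.5, 26 and 17.4 FPKM in old samples. Old sample 3 was only a little above young sample 1, and here old sample 1 was the highest. A 382-nt transcript, ENSMUST00000210996, gave 6.17 FPKM of this in old sample 1 and 4.43 FPKM in old sample 2. ENSMUST00000209772, of 4096 nt, was also higher in old sample 1, at 6 FPKM against 4.77 FPKM in old sample 2. ENSMUST00000211370 was lower there, at 5.14 FPKM against 6.67 FPKM, so the order of these samples depended on several transcripts. The means were 13.3 ± 3.11 and 23.3 ± 5.1 FPKM (SD, n = 3), and the log2 difference was 0.80 (SE 0.22, limma adjusted p = 0.0639).

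Tlr7 (ENSMUSG00000044583, chrX:167304929-167330558, minus strand) encodes the endosomal receptor of single-stranded RNA. Young samples held 1.16, 0.496 and 0.851 FPKM, about 54, 24 and 37 fragments, and old samples 1.78, 2.71 and 1.75 FPKM, about 78, 146 and 81 fragments. The groups did not overlap. The means were 0.837 ± 0.334 and 2.08 ± 0.547 FPKM (SD, n = 3), a log2 change of 1.26 with a 95% interval of 0.45 to 2.06 (limma adjusted p = 0.0624).

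Myd88 (ENSMUSG00000032508, chr9:119335934-119341411, minus strand) encodes the adaptor of Tlr2, Tlr7 and most other Toll-like receptors. Its level was 6.57, 7.9 and 7.77 FPKM in young and 9.07, 7.93 and 9.93 FPKM in old samples. Old sample 2, the highest sample for most of the other genes, was the lowest old sample here and almost level with young sample 2. The log2 change was 0.27 with a 95% interval of -0.03 to 0.58 (limma adjusted p = 0.226). The separation of the groups rested on 1 transcript of 379 nt, ENSMUST00000139870, listed at 1.98 FPKM in old sample 1 and at 0 in all others. The main transcript, ENSMUST00000035092, was at 7.09 FPKM in old sample 1, and its groups overlapped.

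The order of levels differed between the ages. In young cochlea it ran from Mavs, at 18.3 FPKM, through Tlr3, Ddx58, Eif2ak2, Ifih1, Myd88, Tlr2, Dhx58 and Tlr7 to Zbp1. Neighbours in that order were separated in all samples only at Mavs and Tlr3, Myd88 and Tlr2, and Dhx58 and Tlr7. In old cochlea the order ran Tlr3, Ddx58, Ifih1, Mavs, Eif2ak2, Dhx58, Myd88, Zbp1, Tlr2 and Tlr7, and only Tlr2 and Tlr7 were separated. In both orders Tlr3 includes a 382-nt transcript, ENSMUST00000210996, with means of 3.27 FPKM in young and 4.59 FPKM in old samples. This exceeded the gap between Tlr3 and Ddx58 at both ages, so without that short transcript the mean of Tlr3 would lie below that of Ddx58. The mean of Mavs was above those of its receptors Ddx58 and Ifih1 in young samples and below both in old samples, where its values overlapped with those of Ifih1 but not with those of Ddx58.

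Ratios within samples were compared for 6 pairs, with an exact two-sided permutation test whose smallest p is 0.1 for 3 against 3, so that no pair could pass 0.05. The log2 ratio of Ifih1 to Ddx58 was -0.41 ± 0.12 in young and -0.36 ± 0.09 in old samples (SD, n = 3), a difference of 0.04 with overlapping groups (exact permutation p = 0.7, 0.7 adjusted over the 6 pairs). The log2 ratio of Dhx58 to Ddx58 was -1.68, -1.98 and -2.24 in young and -1.14, -0.80 and -1.03 in old samples. These groups did not overlap, and the mean difference was 0.97 (exact permutation p = 0.1, adjusted 0.2). The ratio of Myd88 to Mavs was higher in old samples by 0.45 without overlap (exact permutation p = 0.1, adjusted 0.2). For Zbp1 to Eif2ak2 the difference was 2.25 (exact permutation p = 0.1, adjusted 0.2), and old sample 2, at -0.01, was far above the -3.30 and -2.08 of the other 2 old samples. Tlr7 to Tlr3 and Tlr2 to Tlr3 overlapped between ages, with differences of 0.45 (exact permutation p = 0.2, adjusted 0.3) and 0.17 (exact permutation p = 0.6, adjusted 0.7).

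Old sample 2 was the highest old sample for 7 of the 10 genes, Ddx58, Ifih1, Dhx58, Zbp1, Tlr2, Tlr7 and Eif2ak2. Its value divided by the mean of the other 2 old samples was 1.4 for Ddx58, 1.54 for Ifih1 and 1.71 for Dhx58, but 1.02 for Mavs and 0.835 for Myd88. Young sample 2 was the lowest young sample for 8 of the 10 genes, all but Eif2ak2 and Myd88. Over the 6 samples, which share the age difference, Pearson's r between pairs of Ddx58, Ifih1, Dhx58, Tlr2 and Eif2ak2 lay between 0.97 and 1.00. Tlr3 followed Eif2ak2 less closely, at 0.80, and Mavs had values between -0.55 and -0.17 with the other 9 genes. Among 14838 genes outside the lists with a mean of at least 1 FPKM, the 5 most like the mean profile of the 10 genes were Lxn (r = 0.998), Tmbim6 (0.997), Lgals3bp (0.996), Serpina3n (0.995) and Tapbp (0.995), over 6 samples. Serpina3n, a secreted protease inhibitor, was at 0.551, 0.162 and 0.541 FPKM in young and 1.97, 8.58 and 5.05 FPKM in old samples. Tapbp, which helps load peptides onto MHC class I, was at 55.1, 46.6 and 56.9 FPKM in young and 70.4, 97.5 and 83.1 FPKM in old samples. In both, old sample 2 was highest and young sample 2 lowest. The mean profile by which they were selected has the same extremes, so this is no separate observation.

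The 10 genes had 25 transcripts in the table, of which 20 had a mean of at least 0.1 FPKM. The single transcript of Dhx58, ENSMUST00000017974, was the only 1 called (higher, limma adjusted p = 0.0441 over 38764 transcripts), where 0.748% of all transcripts were called and 0.549% were called higher. At an unadjusted p under 0.05, 10 of the 20 were higher and none lower, against 9.05% of all transcripts. For Ddx58, Dhx58, Tlr2 and Eif2ak2 nearly all of the level came from 1 transcript. The transcripts ENSMUST00000037907 of Ddx58, ENSMUST00000029623 of Tlr2 and ENSMUST00000024884 of Eif2ak2 missed the threshold of this larger family narrowly, with adjusted p of 0.0655, 0.0723 and 0.0663 (limma).

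**Figure D3:**
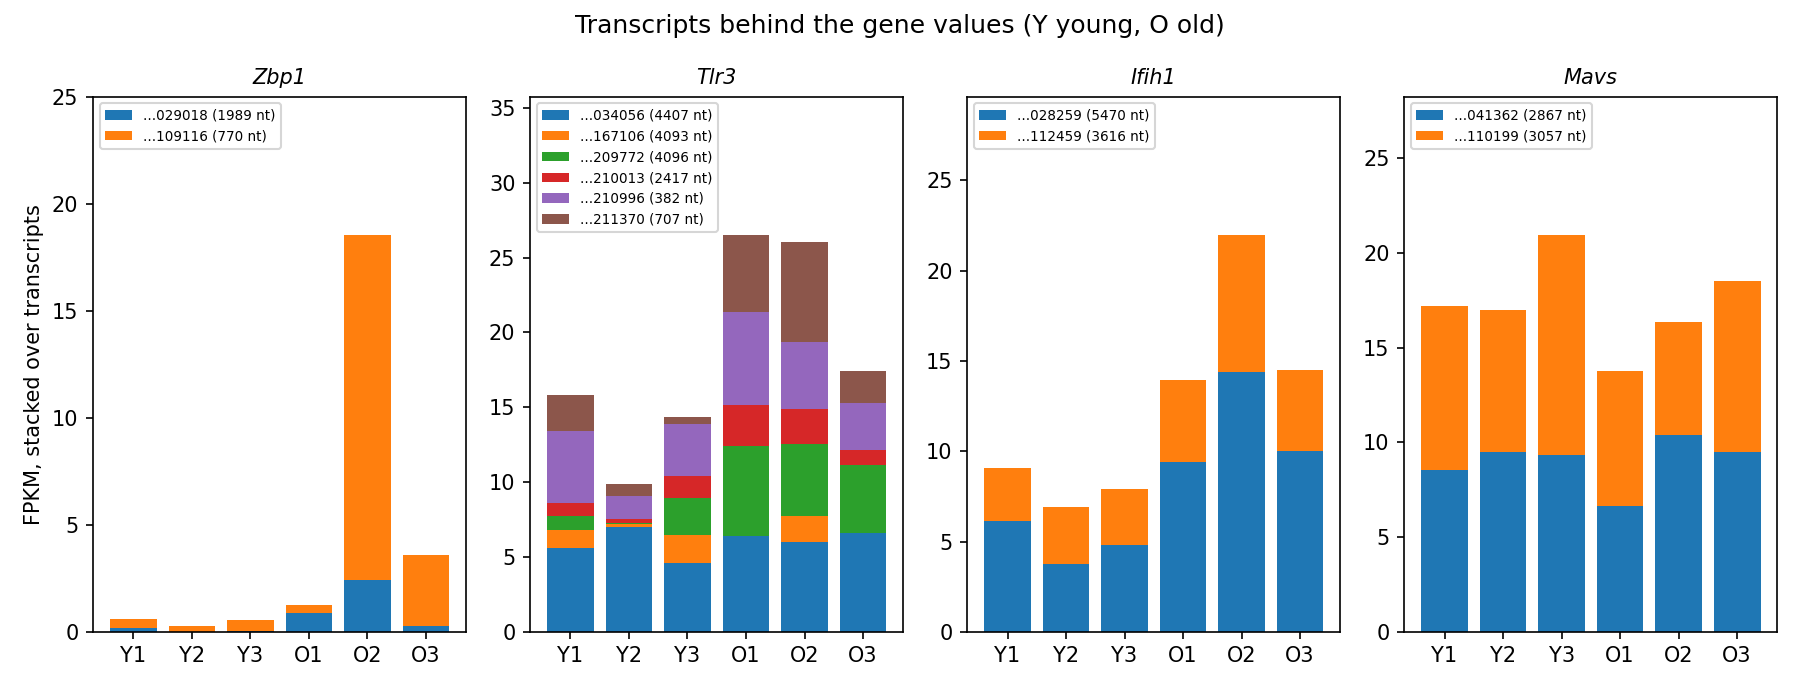
Bars stack the FPKM of the transcripts of Zbp1, Tlr3, Ifih1 and Mavs in young (Y1 to Y3) and old (O1 to O3) samples, coloured by the last digits of the transcript identifier with its length. The 770-nt transcript makes up most of Zbp1 in old samples 2 and 3, and the longest transcript of Tlr3 has nearly the same height at both ages.

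Zbp1 was divided between 2 transcripts that part after exon 3. The long transcript continues into an exon of 168 nt at chr2:173212099-173212266 and the short transcript ends in 1 of 175 nt at chr2:173213735-173213909. The junctions are printed 5′ to 3′ on the strand of the gene, with the last 20 bases of exon 3 in lower case and the first 40 bases of exon 4 in capitals, because the level of the gene depends on which exon 4 is read.
Long transcript, ENSMUST00000029018: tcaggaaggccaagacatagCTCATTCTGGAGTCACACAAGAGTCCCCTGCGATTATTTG
Short transcript, ENSMUST00000109116: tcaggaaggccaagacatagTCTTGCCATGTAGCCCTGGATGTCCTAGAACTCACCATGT

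The long Zbp1 transcript, with 8 exons, 1989 nt and 1233 coding bases, was at 0.19, 0 and 0.0518 FPKM in young and 0.87, 2.45 and 0.28 FPKM in old samples. Every old sample exceeded every young sample. The short transcript, with 4 exons, 770 nt and 561 coding bases, was at 0.425, 0.3 and 0.486 FPKM in young and 0.407, 16.1 and 3.33 FPKM in old samples, and here the groups overlapped. It made up 86.8% and 92.3% of the gene's FPKM in old samples 2 and 3 and 31.9% in old sample 1. In fragments, the short transcript stood for about 123.9 and the long for about 65.5 in old sample 2, so the difference in FPKM between them was partly that of their lengths. Of the 156 stretches of 20 bases in the short transcript's own exon 4, 29 also occur in transcripts of 22 other genes, and of the 149 stretches in the long transcript's exon 4 none does. Only exact copies in annotated transcripts were searched, so inexact copies and copies elsewhere in the genome are not counted. How many of the fragments given to the short transcript could have come from other genes was not tested.

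Tlr3 had 7 transcripts. The longest, ENSMUST00000034056 of 4407 nt, was at 5.62, 7.02 and 4.62 FPKM in young and 6.39, 5.99 and 6.6 FPKM in old samples. Its log2 change was 0.16 with a 95% interval of -0.27 to 0.58 (limma adjusted p = 0.684), and the groups overlapped. ENSMUST00000209772, of 4096 nt, was at 0.921, 0.0683 and 2.42 FPKM in young and 6, 4.77 and 4.53 FPKM in old samples, a log2 change of 2.77 without overlap (limma adjusted p = 0.199). As the FPKM values are divided, the higher gene level of Tlr3 in old mice lay mostly outside its longest transcript. Not every alternative rose, as ENSMUST00000167106, of 4093 nt, had a log2 change of -1.78 (limma adjusted p = 0.555). Of the Tlr3 transcripts 0 were called, and how reads were divided between overlapping transcripts was not tested. The 2 transcripts of Ifih1 both had higher means in old samples, by 1.18 on the log2 scale for ENSMUST00000028259 (limma adjusted p = 0.074) and by 0.79 for ENSMUST00000112459 (adjusted p = 0.161). Those of Mavs, ENSMUST00000041362 and ENSMUST00000110199, had log2 changes of -0.07 and -0.32, and each overlapped between ages. The main transcript of Tlr7, ENSMUST00000060719, also overlapped between ages, at 1.16, 0.496 and 0.556 FPKM in young and 1.78, 2.15 and 1.14 FPKM in old samples.

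The other genes of these pathways were read in 12 lists of 113 genes, of which 102 were tested. Across the lists 30 of the 102 were called higher and none lower, where 5.65% of all genes were called higher, and their median log2 change was 0.35. At an unadjusted p under 0.05, 48 were higher and 2 lower, where 14.6% of all genes were higher. Without old sample 2 the count of 30 called genes became 0 (limma). There 40 had an unadjusted p under 0.05, 39 of them higher, and the share of all genes was not counted. The count of called genes was 9 without young sample 2, 14 without old sample 1 and 5 without old sample 3. In those fits, in the same order, the whole table held 62, 332, 397 and 364 calls.

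Among the other Toll-like receptors, 1 of 7 tested rose, and the median log2 change was 0.30. It was Tlr8, a second endosomal receptor of single-stranded RNA, at 1.25, 1.29 and 0.836 FPKM in young and 3.64, 3.3 and 3.4 FPKM in old samples (log2 change 1.55, limma adjusted p = 0.0143). Of 8 accessory proteins 3 rose, Unc93b1, which carries Tlr3, Tlr7 and Tlr9 to endosomes (0.73, adjusted p = 0.013), Cd14, a coreceptor of Tlr2 and Tlr4 (1.86, adjusted p = 0.0167), and Ly86, the partner of Cd180 (1.22, adjusted p = 0.0348). The 17 adaptors and kinases downstream of the receptors had a median of -0.01, and 2 of them rose. These were Irak3, a kinase-like protein known to damp Toll-like receptor signalling (0.81, adjusted p = 0.0202), and Irak2, a kinase-like protein of the MYD88 complex (0.69, adjusted p = 0.0225). Mavs and Myd88, the adaptors among the 10 genes, did not pass the threshold either.

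Of 12 cofactors of RIG-I-like receptors and related RNA-binding proteins, 3 rose and the median was -0.05. Ddx60, a helicase related to antiviral RNA recognition, was higher by 2.14 on the log2 scale (limma adjusted p = 0.0145), Zc3hav1, which binds CG-rich foreign RNA, by 0.65 (adjusted p = 0.0205), and Trim25, a ubiquitin ligase of the RIG-I pathway, by 0.69 (adjusted p = 0.0291). Of 8 tested genes of the OAS and RNase L system, in which double-stranded RNA switches on RNA decay, 4 rose with a list median of 1.90. Oas1g (2.85, adjusted p = 0.0122), Oas1a (2.74, adjusted p = 0.0167), Oasl2 (2.00, adjusted p = 0.0203) and Oas1c (0.96, adjusted p = 0.0225) were those, and reads of the near-identical Oas1 copies may be divided between them. Of 12 cytosolic DNA sensors 2 rose, Ifi213, from 0.315 to 1.63 FPKM (limma adjusted p = 0.0225), and Ifi207, from 0.311 to 1.02 FPKM (adjusted p = 0.0369), also members of a family of close copies, and the median was 0.91.

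None of the other 3 eIF2alpha kinases was called by limma, and none had an unadjusted p under 0.05. The most abundant, Eif2ak3 of the unfolded protein response, had a log2 change of -0.00 (adjusted p = 0.986), so Eif2ak2 was the only called member of its kinase family. Of 5 partners of ZBP1 in cell death, Casp8, the initiator caspase, rose by 0.61 (adjusted p = 0.0259). Of 7 enzymes that limit self nucleic acid none was called by limma, 3 had an unadjusted p under 0.05, and the most abundant, Rnaseh2c, a subunit of RNase H2, had a log2 change of 0.10 (limma adjusted p = 0.519). Of 5 transcription factors below the sensors 2 rose, Irf7, which drives interferon alpha genes, by 3.01 on the log2 scale (adjusted p = 0.0236) and Irf5, which acts below MYD88, by 2.11 (adjusted p = 0.0186). Irf7 had the same order of samples as Dhx58 among the old, with 22.3, 94 and 37.3 FPKM.

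Of the 6 listed interferon genes 1 was tested, Ifnk, a type I interferon of keratinocytes, at 1.02, 1.4 and 1.25 FPKM in young and 1.25, 0.854 and 0.432 FPKM in old samples (log2 change -0.58, limma adjusted p = 0.372). Ifnb1, Ifna2, Ifna4, Ifng and Ifne fell below the filter, and Ifnb1 was listed at 0 in all samples except old sample 2, at 0.136 FPKM. Of the 5 tested genes of that list, Ifngr1, a chain of the interferon gamma receptor, rose by 0.35 (limma adjusted p = 0.0353). Interferon-stimulated genes, by contrast, were called higher in 11 of 13, with a median of 2.08, and old exceeded young in all 13. Their summed level was 626.6, 340.9 and 453.3 FPKM in young and 1410.6, 3023.9 and 1765.5 FPKM in old samples, again with young sample 2 lowest and old sample 2 highest. Ifi27l2a (log2 change 2.07, adjusted p = 0.0132), Ifit3 (2.67, adjusted p = 0.0201), Xaf1 (1.51, adjusted p = 0.0201) and Bst2, which tethers budding virions (2.08, adjusted p = 0.0205), had the smallest adjusted p. The first word of the promoters, GAAANNGAAA, was in 3.44% of all promoters. Counted by gene, it was in 6 of 9 of this list, 4 of 6 of the OAS list and 6 of 10 DNA sensors. It was in 2 of 8 other Toll-like receptors, 2 of 10 interferons and receptors, 1 of 11 cofactors and 1 of 5 ZBP1 partners. It was in 0 of 15 adaptors and kinases, 0 of 6 enzymes that limit self nucleic acid and 0 of 4 accessory proteins. It was also in 0 of 4 transcription factors and 0 of 3 other eIF2alpha kinases.

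**Figure D4:**
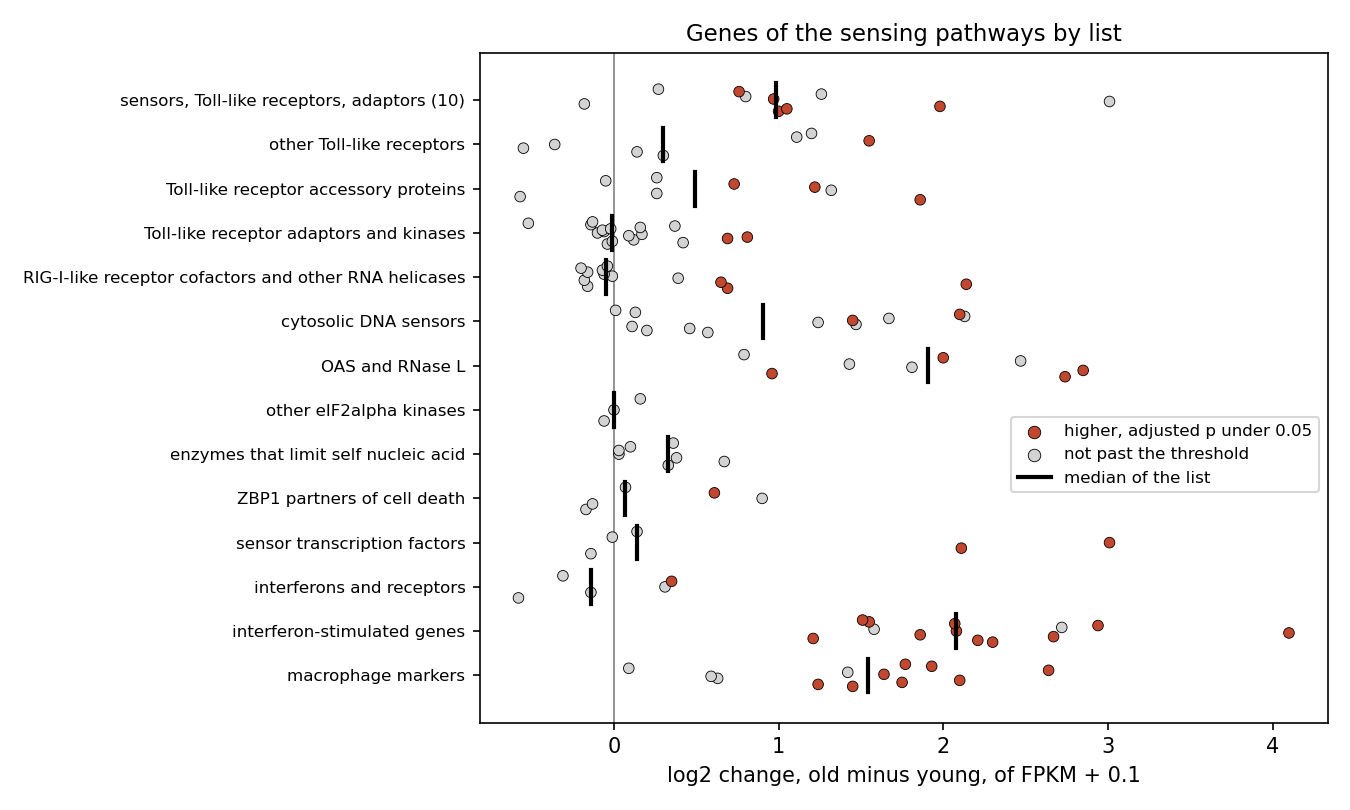
Each point is 1 tested gene at its log2 change (old minus young) of FPKM + 0.1, in rows by list, with red for an adjusted p under 0.05 and a black bar at the median of the list. The medians of the OAS list, 1.90, and of the interferon-stimulated genes, 2.08, lie above the 0.99 of the 10 genes, and those of the adaptors, -0.01, and cofactors, -0.05, lie near 0.

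Markers of other cell types moved with age beside these genes. Of 12 macrophage markers 8 were called higher, none lower, with a median log2 change of 1.55, and none of them was at 0 in any sample. Their sum was 147.2 to 214.1 FPKM in young and 692.5 to 755.4 FPKM in old samples. The highest sum was in old sample 1, where Lyz2 alone gave 510.8 of 755.4 FPKM, and 8 of the 12 markers were highest in old sample 2. Among the old samples, sample 2 was also highest for 7 of the 10 genes, all 13 interferon-stimulated genes and all 4 neuron markers. Of 5 tested T and NK cell markers 2 were higher, with sums of 0.423 to 1.11 FPKM in young and 4.94 to 5.34 FPKM in old samples and with Ncr1 at 0 throughout. Siglech was the 1 of 3 markers of plasmacytoid dendritic cells, cells rich in Tlr7, that was called (2.01, limma adjusted p = 0.0237). The others, Ccr9 (0.13, adjusted p = 0.836) and Tcf4 (-0.02, adjusted p = 0.912), were nearly level. All 4 neuron markers were called lower, as were 2 of 6 hair cell and 2 of 4 Schwann cell markers, where 3.81% of all genes were. Bone markers had the lowest median of these lists, -1.92, with 1 of 4 called lower. All 4 bone markers had every old sample below every young sample, which held for 16.1% of all genes. Their sum was 179.7, 21 and 73.8 FPKM in young and 10.7 to 17.1 FPKM in old samples, highest in young sample 1. The 4 endothelial markers had a median of -0.58, and none was called by limma, with 2 lower at an unadjusted p under 0.05. The part of these cell types in the levels of the 10 genes was not tested, nor was that of the neutrophil and bone markers of young sample 1, the highest young sample for 7 of the 10 genes.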

How the data were processed

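The authors made directional libraries from total RNA of 6 cochlear samples (3 per age, 3 mice pooled in each), read them as pairs, aligned them to GRCm38 and calculated the FPKM of each transcript in each sample (Cuffdiff 2.1.1). The submitters' processing notes also name TopHat2 2.0.9, CASAVA 1.8 and Cufflinks 2.1.1. The deposited FPKM values were used without further scaling. The annotation release and the scaling between libraries are not given in the sources used here. Of 55679 Ensembl transcripts, 55275 matched GENCODE M21 and were summed per gene, and the 404 unmatched entered only the fit of transcripts. Each of the 992 assembled lncRNA transcripts was kept as a gene of its own, so these are part of the gene totals. Samples were grouped by the labels.

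Log2(FPKM + 0.1) was compared with limma 3.58.1 in R 4.3.3 (lmFit, eBayes with trend) over every gene or transcript with a mean of at least 0.1 FPKM. Benjamini-Hochberg adjustment ran over all of them, with a threshold of 0.05. The study's Cuffdiff test needs reads and was not run. P-values measure the spread between pools of mice. Fragments were estimated from the steps between low values of transcripts of 1000 to 4000 nt, in genes with a single transcript. Of these values 92.8% to 94.6% per sample lay within 0.1 of a whole number. The depth was chosen to bring them near whole numbers, so that share is no separate check. The fragment numbers carry counting error, and the error from the estimated depth and from the division of reads between transcripts was not measured. They are not given for transcripts under 500 nt, and sums per gene leave those transcripts out. The code was tested on simulated data. Python 3.11.15, pandas 2.3.3, numpy 2.4.6 and matplotlib 3.10.9 were used for tables and plots.

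The 10 genes and all lists were chosen with earlier results of these data known. In the other lists the genes named are those past the threshold, at most the 4 with the smallest adjusted p, and otherwise the most abundant. Neutrophil markers, Siglech, Ncr1, Ifnb1, Ifnk and Lyz2 were chosen after their values were seen, as were the 2 promoter words and the Zbp1 junction. Other pseudocounts, filters, scalings and variance models, a replicate block and each sample left out were tried.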

Additional observations from a re-analysis of the deposited data

How the results depend on the processing

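The direction of all 10 genes was kept under every alternative run. The count of 5 called genes became 1 without the variance trend, 8 with sample weights, 8 at an unadjusted p and 0 to 5 with 1 sample left out. The count of 30 pathway genes became 9 without the trend, 50 at an unadjusted p and 0 to 26 with 1 sample left out. The 1 called transcript became 0 without a filter, 0 without the trend, 10 at an unadjusted p and 0 with any sample left out (limma, where 7 to 10 had an unadjusted p under 0.05, all higher except 1 of the 8 without old sample 2). Same-numbered samples did not deviate together over all tested genes (correlations 0.02, -0.04 and 0.01). Whether the numbers pair samples in some genes was not tested. With the replicate number as a block, 1 of the 10 genes, 14 pathway genes and 0 transcripts were called.

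The log2 ratio of Ifih1 to Ddx58 changed sign to -0.02 without young sample 3 and to -0.00 without old sample 2, and that of Tlr7 to Tlr3 to -0.02 with a pseudocount of 1. With 1 sample left out, the differences ranged from -0.02 to 0.09 for Ifih1 to Ddx58, 0.84 to 1.12 for Dhx58 to Ddx58, 0.35 to 0.65 for Tlr7 to Tlr3, 0.02 to 0.38 for Tlr2 to Tlr3, 0.33 to 0.55 for Myd88 to Mavs and 1.36 to 3.01 for Zbp1 to Eif2ak2. Except where fewer samples entered, the causes were not tested. Over all genes, 1840 were called with all samples, 410 without the trend, 730 with the block and 2403 with sample weights. With 1 sample left out, 62 to 1771 were called. No scaling moved the median change of all genes by over 0.1. At this depth Zbp1 in young mice rests on 2 to 7 fragments.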
